A study of Mus musculus with 12 samples.

Results

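The cytosolic ribosomal protein genes were compared in the tibialis anterior, a hindlimb muscle, of mice with and without the mdx/mTR genotype. They were taken as every entry of the deposited count table whose symbol is Rpl or Rps with a number (and at most one letter a, x or l), or is Rpsa, Rplp0, Rplp1 or Rplp2. This rule, which uses no measured value, found 81 genes of 24421 entries, 49 of the large and 32 of the small ribosomal subunit. The controls were 6 C57Bl/6 males (WT) and the other group 6 mdx/mTR males, and all 12 mice were 4 months old. In mdx mice Dmd, the dystrophin gene, is disrupted, and mTR is the name of the mouse telomerase RNA gene. The labels do not give the breeding generation or the background of the mdx/mTR line, nor whether the mice of a group were littermates. The p-values set the difference between the groups against the spread of these 12 mice within them. They cannot separate genotype from line background or litter. Libraries held 35136327 to 60330410 counts. As a check of the labels, Dmd lay between 228 and 244 CPM (library-scaled counts) in every WT library and between 35.2 and 56.4 CPM in every mdx/mTR library. Terc, the telomerase RNA gene, was below the limit of detection in both groups and checks nothing.

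Each cytosolic ribosome contains 1 copy of nearly every ribosomal protein on a scaffold of ribosomal RNA (rRNA), with the acidic stalk proteins as the known exception. The genes are among the most strongly transcribed of a growing cell, and their mRNAs typically begin with a C followed by a run of pyrimidines (the TOP motif), through which mTORC1 and the RNA-binding protein LARP1 set their translation. A few have paralogs with a restricted pattern, of which Rpl3l, made in heart and skeletal muscle in place of Rpl3, is the best known in this tissue. Ribosomal protein mRNAs have also left many processed pseudogenes, intronless copies of the mRNA in the genome. A short read from such a gene can match several places, and the sources used here do not state how such reads were counted.

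Examples of this problem, chosen for identity to a pseudogene, are given from the sequences of the genes that differed most between the groups. A stretch of 60 coding bases of Rpl3 (bases 520 to 579 of its reading frame) is set beside the same bases of the processed pseudogene Rpl3-ps1 and of Rpl3l, with capitals for bases that differ from Rpl3. It is the stretch closest to Rpl3l among those that Rpl3-ps1 repeats exactly.
Rpl3: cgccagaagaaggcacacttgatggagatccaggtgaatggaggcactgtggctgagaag
Rpl3-ps1: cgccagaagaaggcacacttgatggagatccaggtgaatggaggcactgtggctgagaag
Rpl3l: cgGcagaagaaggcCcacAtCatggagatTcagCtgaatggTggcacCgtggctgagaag
In GRCm38, Rpl3 lies at chr15:80077791-80091868 on the minus strand, Rpl3-ps1 at chrX:13202571-13203780 and Rpl3l at chr17:24727820-24736143, both on the plus strand. Rpl3l differs from Rpl3 at 8 of the 60 bases, so reads of the paralogs can be told apart, whereas a read inside this stretch of Rpl3 cannot be told from Rpl3-ps1. The same comparison for Rps4x used coding bases 721 to 780, the processed pseudogene Gm9616 and the paralog Rps4l, which GENCODE annotates as a transcribed processed pseudogene.
Rps4x: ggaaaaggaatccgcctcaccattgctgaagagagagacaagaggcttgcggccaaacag
Gm9616: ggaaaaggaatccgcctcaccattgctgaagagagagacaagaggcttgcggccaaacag
Rps4l: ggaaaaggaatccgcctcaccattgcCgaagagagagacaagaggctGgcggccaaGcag
Rps4x lies at chrX:102184941-102189394 on the minus strand, Gm9616 at chr13:3298887-3299667 and Rps4l at chr6:148354656-148355598, both on the plus strand. Rps4l differs from Rps4x at 3 of these 60 bases.

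The members were next described by the bases around their transcription starts, because the TOP motif lies there. RefSeq start windows (GRCm38.p6) were at hand for 60 of the 81 genes. The 15 bases before and the 15 bases from the start are given for 6 genes with a single listed start, with capitals for the longest run of C and T, of at least 5 bases, that reaches into the 5 bases on either side of the start.
Rpl15: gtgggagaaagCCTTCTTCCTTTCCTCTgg
Rpl27a: gacttcgtgagCTCCTCCCTTTTCCCTTTC
Rpl13a: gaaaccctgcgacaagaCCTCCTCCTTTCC
Rps10: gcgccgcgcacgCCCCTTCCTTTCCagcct
Rpl41: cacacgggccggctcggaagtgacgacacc
Rps4x: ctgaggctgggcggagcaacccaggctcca
These windows lie at chr14:18270972-18271001 (minus strand), chr7:109519180-109519209 (plus), chr7:45128731-45128760 (minus), chr17:27635230-27635259 (minus), chr10:128549154-128549183 (minus) and chrX:102189377-102189406 (minus), in that order. The first, which holds a run of 17 pyrimidines, belongs to a gene that was lower in mdx/mTR, and the next 3 belong to genes that were higher. The last pair, which have no such run, hold a gene that was higher and a gene that was lower. These 6 were chosen among called members, and other genes with a single start are not shown. They therefore cannot show whether the run goes with a direction. A stricter rule than that of the capitals was used for counting, with at least 5 pyrimidines in a row inside the 5 bases on either side of a start. The run shown for Rpl13a does not meet it. By this rule 22 of the 60 genes (36.7%) had a run, against 18.6% of the 27025 genes with a window. In the 250 bases before and 50 after the start, searched on both strands, CCGGAAG (a core of ETS factor sites) was present in 41.7% of the members and 9.93% of all genes. AAGATGG (a core of YY1 sites) was present in 9 of the 60 members and 7.28% of all genes, and GGGCGG (a GC box) in 36 members and 38.2% of all genes. TATAAA, searched in the bases before the start, was found in 3 members and 14.3% of all genes. These are matches of letters in a window, not measured binding sites.

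The level at which a member was counted varied widely. Levels are CPM (counts relative to a common library size, scaled by TMM, a trimmed mean of log ratios between libraries), and levels of different genes are compared per kilobase (kb) of the main transcript. The proteins are held in near-equal numbers in a ribosome, but the mean count level of the members ranged from 0 to 529 CPM with a median of 10.4 CPM. In all, 9 members reached 100 CPM and 18 were below 1 CPM. The highest per length was Rpl3l with 384 CPM per kb, followed by Rpl4 (282 CPM per kb), whose long loop lines the exit tunnel. At the other end, Rpl26 and Rpl10l had no count in any of the 12 libraries. Rpl5, the partner of Rpl11 in the particle that carries the smallest rRNA, had 0.298 CPM per kb. This value rests on a main transcript of 2045 bases, and a shorter transcript would raise it. A count of 0 allows up to 3 counts, which is 0.0460 to 0.0837 CPM depending on the library, and this limit covers counting error only.

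To measure shared sequence, the main transcript of each member was cut into all its overlapping stretches of 50 bases, and those also present in any other gene's transcripts (GENCODE M21) were counted. The median share over the 81 members was 55.4%, with a range from 0 to 98.6%, and 50 members shared over 50% of their stretches. Rpl3l and Rpl39l were among those that shared none. A total of 78 members shared a stretch with at least 1 annotated pseudogene, with a median of 8 pseudogenes and a maximum of 121 for Rpl7a. The members with the largest share were Rps27 (98.6%), Rpl35 (95.1%) and Rpl5 (93.8%). The genes shared with are not all pseudogenes. Rps27 shares most with Rps27rt (98.6%), which is annotated as protein-coding. Rpl35 shares most with Wdr38 (59.0%), and 7 of its 12 other genes are pseudogenes. At a stretch length of 100 bases the median share was 41.4%.

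Members with more shared sequence were counted at lower levels. The median was 51.4 CPM per kb for the 13 members sharing under 25% of their stretches, 39.5 for the 18 sharing 25 to 50%, 18.02 for the 24 sharing 50 to 75% and 2.73 for the 26 sharing 75% or more. Across the 81 members, which come from the same 12 libraries, Spearman's rho between level per kb and shared percentage was -0.44 at 50 bases and -0.51 at 100 bases, given as a description. The part of read placement in these levels was not tested. Among 7 counted pseudogene entries named after members, Rpl14-ps1 had 1040 counts over the 12 libraries (15777 for Rpl14). Rps19-ps3 had 219 (10721 for Rps19), and the other 5 had 0 to 32. Counts of pseudogenes under other symbols were not examined. Rpl3-ps1 and Gm9616, which share most with Rpl3 and Rps4x, were not counted as entries, so nothing can be said of their reads.

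**Figure D1:**
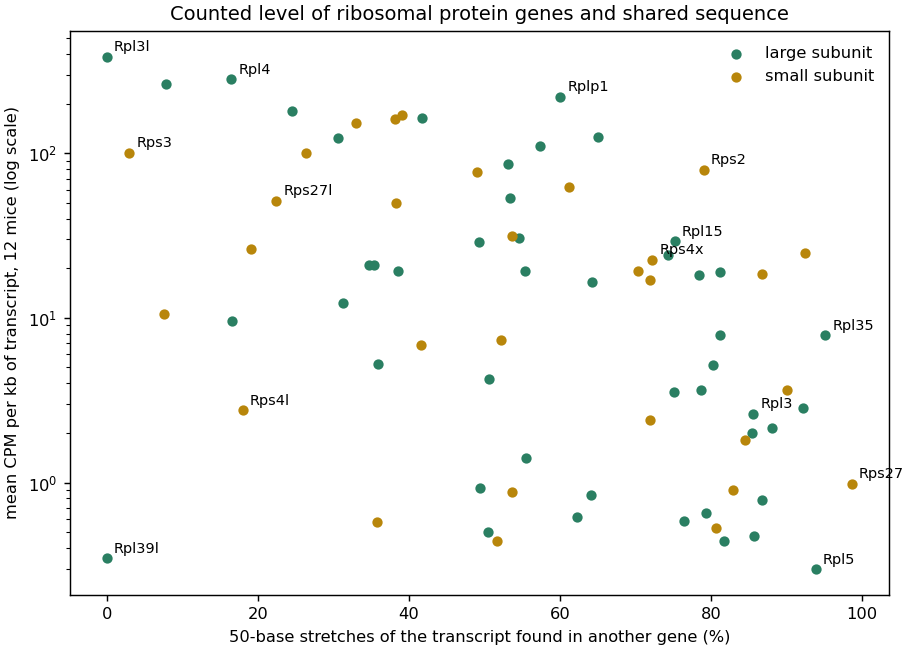
Mean level of each ribosomal protein gene (vertical axis, CPM per kb of transcript over 12 mice, log scale) against the percentage of its 50-base stretches that occur in another gene (horizontal axis), with large- and small-subunit genes in different colours. Rpl26 and Rpl10l, at 0 CPM, and genes not reported here are not drawn. Rpl3l and Rpl4 lie at the upper left, and Rps27 and Rpl5 at the lower right.

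With TMM scaling, the ribosomal protein genes as a group changed little between WT and mdx/mTR muscle, while single members moved in both directions. After a filter on low counts, 77 members were tested (Rpl26, Rpl10l, Rps29 with 126 counts and Rpl39l with 106 counts in total were not), and 17 passed an adjusted p of 0.05 in edgeR's quasi-likelihood test. This is 22.1% of the tested members, whereas 48.3% of all 13937 tested genes were called. Of the 17, 14 were higher in mdx/mTR (18.2% of members, 25% of all genes) and 3 were lower (3.90% of members, 23.4% of all genes). The filter kept members by their level, so these counts describe the 77 and not the 81.

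The changes were small. The median log2 fold change of the 77 was 0.10, with quartiles of 0.02 and 0.25, beside a median of 0.01 over all tested genes. Estimates above 0 were found for 61 of the 77 members (79.2%), against 51.8% of all tested genes. An estimate within 0.3 of zero on the log2 scale was found for 79.2% of the members and 59.9% of all genes. Only Rpl3 and Rps4x reached a 2-fold change with a call, which 9.18% of all tested genes did. The 2 groups of mice did not overlap for 4 higher members (Rpl3, Rpl39, Rpl41 and Rpl27a) and 2 lower members (Rps4x and Rpl15), against 12.6% of all tested genes in each direction. In the authors' deposited table, 15 members had an adjusted p under 0.05 (50.1% of all genes with an adjusted p), 12 higher and 3 lower, and all 15 were among the 17.

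The number of calls depended on how libraries were scaled. TMM factors were 0.929 to 0.971 in WT and 0.988 to 1.16 in mdx/mTR. Scaled by library totals alone, 47 of the 77 tested members were called, 46 higher and 1 lower. Of all genes, 51.3% were called (40.2% higher and 11.2% lower). Members were thus called higher more often than all genes, the reverse of the result with TMM scaling. Upper quartile scaling gave 26 members (47.7% of all genes). DESeq2 called 15 members (42.6% of all genes) and limma-voom 17 (47.5%). At an adjusted p of 0.01, 6 members were called (33.2% of all genes), and 2 with a minimum log2 fold change of 0.5 (9.82%). With library totals, the median of all genes moved to 0.17 on the log2 scale and that of the members to 0.26. Relative to the median of all genes, the members' median was 0.09 under both scalings.

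By subunit, 10 of the 46 tested large-subunit genes were higher (21.7%, against 25% of all genes) and 1 was lower (2.17%, against 23.4%). Their median log2 fold change was 0.11. Of the 31 tested small-subunit genes, 4 were higher (12.9%) and 2 were lower (6.45%), with a median of 0.10. Among members with a mean of at least 5 CPM, 11 of 47 were higher and 3 were lower (29.8% called, against 50.8% of all genes at that level). Of the 30 members below 5 CPM, 3 were higher and 0 were lower, and their intervals were wide. This is 10% called, against 48.3% of all tested genes of any level, a comparison not matched by level. Among members that share under 25% of their stretches, 1 of 11 was higher (Rpl39) and 1 was lower (Rps27l). This is 18.2% called, against 48.3% of all tested genes, and their median log2 fold change was 0.03.

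**Figure D2:**
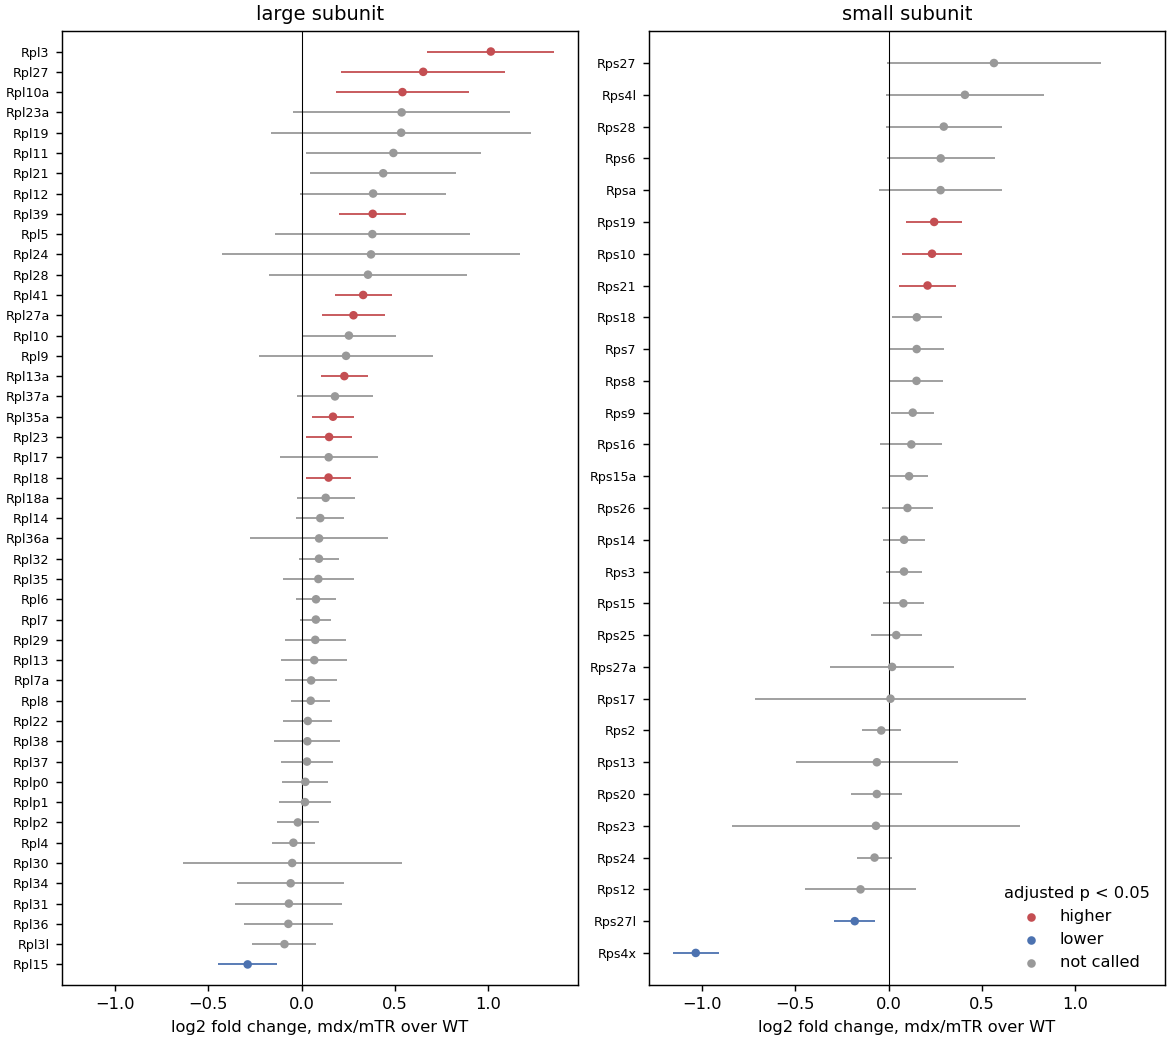
Change from WT to mdx/mTR on the log2 scale (horizontal axis) for the tested members reported here, with 95% confidence intervals from the edgeR fit (n = 6 mice per group), large subunit on the left and small subunit on the right. Coloured points passed an adjusted p of 0.05, and Rpl3 and Rps4x lie farthest from 0 on either side.

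The summed level of all 81 members was close in the 2 groups. It was 3388 ± 173 CPM in WT (SD, n = 6; lowest 3172, median 3365, highest 3695) and 3452 ± 102 CPM in mdx/mTR (lowest 3319, median 3447, highest 3591). The difference was smaller than the spread between mice, and the highest value belonged to WT 1. As a share of unscaled counts, the members took 0.321% ± 0.0139 in WT and 0.365% ± 0.0257 in mdx/mTR. Rpl3l alone made up 16.1% ± 0.624 of the summed level in WT and 14.8% ± 1.97 in mdx/mTR, with the lowest share, 11.3%, in mdx/mTR 5. For the 47 members of at least 5 CPM, the median deviation from the mean of WT was 0.18 on the log2 scale in mdx/mTR 5, the highest of all mice, and 0.14 in WT 1, the highest of WT.

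Rps4x fell by about 1 on the log2 scale and had the smallest adjusted p of the members. Rps4x, a small-subunit protein encoded on the X chromosome, was counted at 28.1 to 30.6 CPM (median 29.9) in WT and at 12.9 to 16.6 CPM (median 14.3) in mdx/mTR. The groups were far apart, and neither spread by more than a few CPM. The log2 fold change was -1.03 ± 0.06 (SE, n = 6 per group, edgeR adjusted p 4.1e-08), and the authors' deposited table gives -1.04. Rps4x shares 72.2% of its 50-base stretches with other genes and 34.8% of its 100-base stretches, and the part of shared reads in its fall was not tested. Of the other 52 tested genes within 5 Mb of it, 38.5% were called higher (25% of all genes) and 26.9% lower (23.4% of all genes). The other tested members on the X chromosome are Rpl39, which was higher, and Rpl10 and Rpl36a, which were not called.

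Rpl15, a core protein of the large subunit, was 24.98 to 26.9 CPM (median 25.8) in WT and 17.1 to 24.7 CPM (median 21.7) in mdx/mTR. Every mdx/mTR mouse lay below every WT mouse, with mdx/mTR 6 (24.7 CPM) just under the lowest WT mouse. Its log2 fold change was -0.29 ± 0.07 (edgeR adjusted p 0.0051), and it shares 75.2% of its stretches. Rps27l, the paralog of Rps27 known as a p53 target, fell from 24.9 to 30.3 CPM (median 26.9) in WT to 22.3 to 24.9 CPM (median 24.4) in mdx/mTR. The groups touched at one end. Its log2 fold change was -0.18 ± 0.05 (edgeR adjusted p 0.0103), and it shares only 22.4% of its stretches. With library totals in place of TMM scaling, the calls of Rpl15 (log2 fold change -0.14) and Rps27l (-0.03) were lost, and that of Rps4x was kept.

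Rpl3, a protein at the heart of the large subunit near the site where peptide bonds form, showed the largest rise. It was 2.14 to 2.57 CPM (median 2.35) in WT and 3.52 to 7.12 CPM (median 4.39) in mdx/mTR. All mdx/mTR mice were above all WT mice, with mdx/mTR 5 the highest and mdx/mTR 1 the lowest of their group. The log2 fold change was 1.02 ± 0.16 (edgeR adjusted p 0.00018). Rpl3 shares 85.6% of its stretches, with 26 pseudogenes among the other genes, and the part of shared reads in its rise was not tested.

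Among the other large-subunit genes, Rpl39, a very small protein of the exit tunnel, rose from 4.58 to 5.70 CPM (median 4.94) in WT to 6.15 to 7.54 CPM (median 6.52) in mdx/mTR. The groups did not overlap. Its log2 fold change was 0.38 ± 0.08 (edgeR adjusted p 0.0020), and with 16.5% of stretches shared it is the riser with the least shared sequence. Rpl41, a peptide of the subunit interface and one of the shortest proteins of the cell, was 29.3 to 38.8 CPM (median 32.2) in WT and 39.5 to 45.9 CPM (median 41.1) in mdx/mTR. Here too the groups did not overlap, and the gap between them was under 1 CPM. Its log2 fold change was 0.33 ± 0.07 (edgeR adjusted p 0.0018). Rpl27a was 4.81 to 6.10 CPM (median 5.58) in WT and 6.12 to 7.61 CPM (median 6.58) in mdx/mTR, with a log2 fold change of 0.28 ± 0.08 (edgeR adjusted p 0.0107). Its groups were separated by the narrowest margin of the 4.

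The remaining large-subunit rises came with overlapping groups. Rpl13a, which also has a known role outside the ribosome in silencing mRNAs of inflammation, was 95.2 to 118.9 CPM (median 107.9) in WT and 117.2 to 140.1 CPM (median 124.4) in mdx/mTR, a log2 fold change of 0.23 ± 0.06 (edgeR adjusted p 0.0059). WT 1 was the only WT mouse inside the mdx/mTR range. Rpl10a, the protein of the mobile stalk beside the exit site for transfer RNA, had a mean of 1.26 ± 0.186 CPM in WT mice. In mdx/mTR mice it was 1.84 ± 0.415 CPM, a rise of 0.54 on the log2 scale (edgeR adjusted p 0.0153), and it shares 88.1% of its stretches. Rpl35a, needed to mature the large subunit, rose by 0.17 on the log2 scale (edgeR adjusted p 0.0185). Rpl27 (0.65), Rpl23 (0.15) and Rpl18 (0.14) completed the large-subunit rises, and are named here because the values were seen. The calls of Rpl23 and Rpl18 are marginal (edgeR adjusted p 0.0457 and 0.0467) and were lost with DESeq2 (0.0625 and 0.0658). Leaving out any 1 mouse other than WT 1, mdx/mTR 1 or mdx/mTR 6 ended the call of Rpl23, and any 1 other than WT 1 or mdx/mTR 6 that of Rpl18. Rpl27 rests on 0.278 to 0.837 CPM over the 12 mice. With the replicate number as a block, the calls of Rpl35a (edgeR adjusted p 0.0585), Rpl27 (0.0547), Rpl23 (0.0626) and Rpl18 (0.0848) were lost.

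Of the small-subunit genes, Rps19, whose loss blocks maturation of the subunit's rRNA, was 16.5 to 19.3 CPM (median 18.1) in WT and 18.2 to 24.6 CPM (median 21.5) in mdx/mTR. Its groups overlapped at mdx/mTR 1. The log2 fold change was 0.24 ± 0.07 (edgeR adjusted p 0.0105). Rps10, a protein of the subunit's head that is tagged with ubiquitin when ribosomes collide, rose by 0.23 (edgeR adjusted p 0.0188). It shares 92.4% of its stretches with 3 other genes, of which 2 are pseudogenes, and 90.6% with RPS10-NUDT3 alone. Rps21 rose by 0.21 (edgeR adjusted p 0.0257), but this call was lost when any of WT 4, WT 5, mdx/mTR 4 or mdx/mTR 5 was left out (log2 fold change 0.17, 0.19, 0.18 and 0.19). With the replicate block the calls of Rps10 (edgeR adjusted p 0.0502) and Rps21 (0.0723) were lost.

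**Figure D3:**
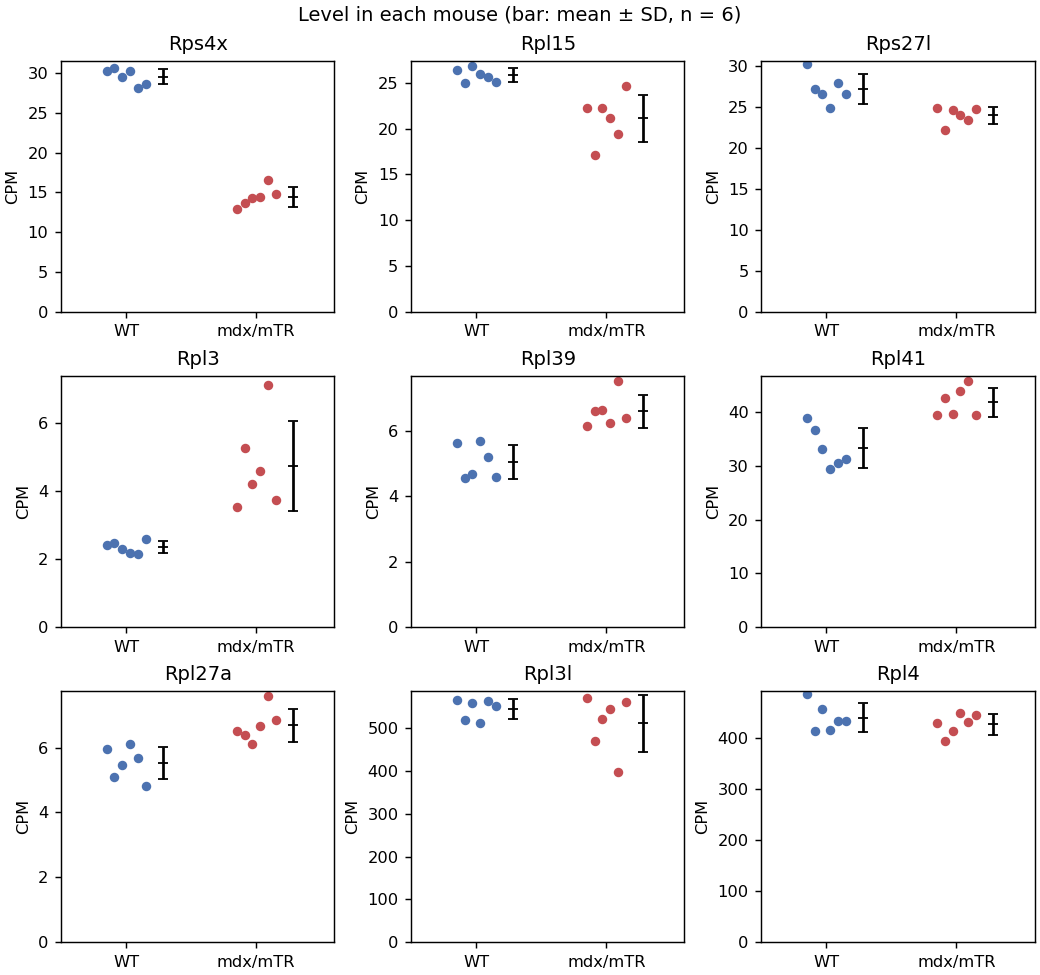
Level in each mouse (vertical axes, CPM, starting at 0) of 9 members in WT and mdx/mTR, with the mean and SD of each group (n = 6) beside the points. Rps4x falls from 28.1 to 30.6 CPM in WT to 12.9 to 16.6 CPM in mdx/mTR, and Rpl3, Rpl39, Rpl41 and Rpl27a are separated in the other direction. Rpl3l and Rpl4 overlap between the groups.

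Rpl3l and Rpl4, the members counted highest per length, did not pass the test. Rpl3l was 511.9 to 566.5 CPM (median 555.8) in WT and 398.3 to 571.9 CPM (median 534.0) in mdx/mTR, with mdx/mTR 5 the lowest of all mice. Its log2 fold change was -0.09, with a 95% interval from -0.26 to 0.08 (edgeR adjusted p 0.364). Rpl4 had a log2 fold change of -0.04 (interval -0.16 to 0.07). With library totals in place of TMM scaling the estimates of Rpl3l and Rpl4 turned positive, at 0.06 and 0.11.

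The stalk genes Rplp0, Rplp1 and Rplp2, whose proteins recruit the GTPases of elongation, had log2 fold changes of 0.02, 0.02 and -0.02 with adjusted p from 0.773 to 0.837. Their 95% intervals reached from -0.13 to 0.16 at most. Rps6, Rpsa, Rpl5 and Rpl11, members with described roles in signalling, were likewise not called. Rps6, the substrate of S6 kinase, had a log2 fold change of 0.28 (edgeR adjusted p 0.101), and Rpsa, also described as a laminin-binding protein, 0.28 (0.152). Rpl5 and Rpl11, which bind Mdm2 when ribosome assembly fails, had values of 0.38 (0.215) and 0.49 (0.0787). Rpl11 passed the threshold when mdx/mTR 1 or mdx/mTR 5 was left out (adjusted p 0.0476 and 0.041). Rpl38 and Rps25, which are linked to translation of particular mRNAs, had 0.03 and 0.04. Rps6, Rpsa, Rpl5 and Rpl11 each averaged under 2 CPM in both groups. Their 95% intervals, not adjusted for the number of genes, were -0.01 to 0.57 for Rps6, -0.05 to 0.61 for Rpsa, -0.14 to 0.90 for Rpl5 and 0.02 to 0.96 for Rpl11. Rpl35 and Rpl10, which joins the large subunit last, had 0.09 and 0.25 and were not called.

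Core ribosomal proteins under other symbols were examined too. Gnb2l1 (the scaffold protein RACK1) had means of 270 ± 11.7 CPM (WT) and 275 ± 18.1 CPM (mdx/mTR). Rps3a1 was 23.4 ± 0.702 and 24.5 ± 2.45 CPM, and Fau, a ribosomal protein made as a fusion with a ubiquitin-like protein, 1.58 ± 0.160 and 1.75 ± 0.210 CPM. None of the 4 tested genes of this list was called, against 48.3% of all tested genes. With library totals 2 were higher (50%), against 40.2% of all genes.

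Paralog pairs were compared as the share of the paralog in the sum of the pair, on counts per transcript length, with a two-sided exact permutation test over mice. The test was run on 7 pairs, and its smallest possible p with 6 against 6 is 0.00216. Rpl3l made up 99.56% ± 0.0352 of Rpl3l and Rpl3 together in WT (99.52 to 99.61%) and 99.02% ± 0.433 in mdx/mTR (98.21 to 99.38%). All mdx/mTR mice were below all WT mice, with mdx/mTR 5 the lowest. The difference of -0.54 percentage points had an exact permutation p of 0.00216 (0.00758 adjusted over the 7 pairs). Rpl3l still outnumbered Rpl3 in every mouse. Since most of Rpl3 is shared with pseudogenes and Rpl3l is not, the share was also computed on counts per unshared stretch. Here and for the pairs below, this divides all counts of a gene by its number of stretches found in no other gene. It does not select the reads that fall in those stretches. By this measure the Rpl3l share was 97.1% ± 0.232 in WT and 93.7% ± 2.62 in mdx/mTR.

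Rps4l made up 7.21% ± 1.30 of Rps4l and Rps4x in WT (5.84 to 9.30%) and 17.4% ± 3.92 in mdx/mTR (13.4 to 24.1%). The groups did not overlap, with an exact permutation p of 0.00216 (0.00758 adjusted). On counts per unshared stretch, of which Rps4x has 257 and Rps4l 607, the share was lower in both groups, at 2.60% ± 0.495 in WT and 6.76% ± 1.75 in mdx/mTR. The count of Rps4l itself was not called (log2 fold change 0.41, edgeR adjusted p 0.101), with a WT range of 1.41 to 2.54 CPM and an mdx/mTR range of 1.62 to 3.51 CPM. Left out singly, WT 2 or mdx/mTR 1 brought it past the threshold (adjusted p 0.0474 and 0.0359).

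Rps27l made up 98.6% ± 0.436 of Rps27l and Rps27 in WT and 97.6% ± 0.685 in mdx/mTR (exact permutation p 0.0108, adjusted 0.0253), with overlapping groups. Rps27 was counted at only 0.183 to 0.613 CPM, and 4 of its stretches are found in no other gene. On counts per unshared stretch the Rps27l share was 54.3% ± 7.74 in WT and 41.5% ± 6.54 in mdx/mTR, so its size depends on the divisor used. The shares of Rpl22l1, Rpl36al, Rpl7l1 and Rpl39l differed by -0.953 to -0.046 points and had adjusted exact permutation p-values from 0.326 to 0.950. For Rpl22l1, Rpl36al and Rpl7l1 themselves the log2 fold changes were -0.12, 0.06 and 0.03. No pair could be formed for Rpl10l, a gene known from testis, which had no count.

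**Figure D4:**
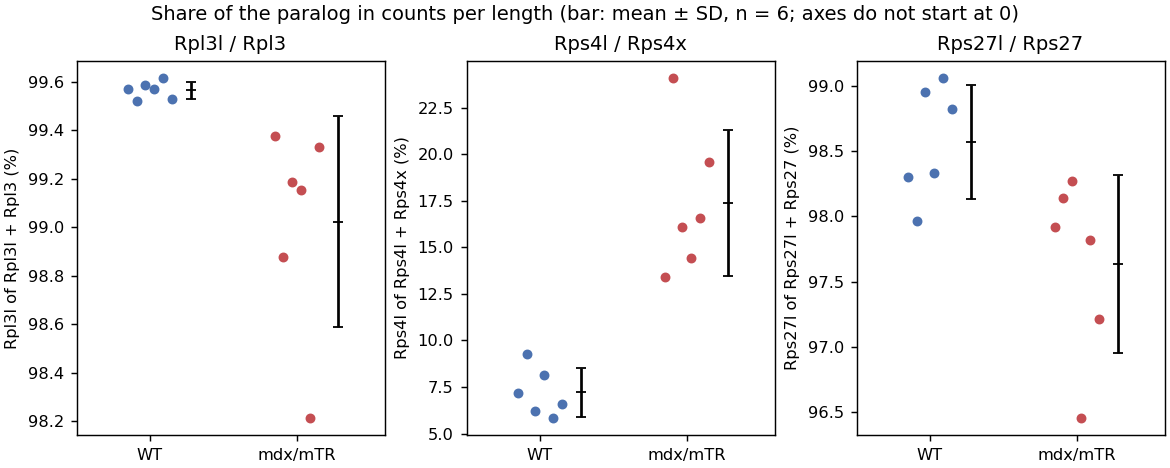
Share of Rpl3l, Rps4l and Rps27l in the sum with their counterpart (vertical axes, percent of counts per length, not starting at 0) in each WT and mdx/mTR mouse, with the mean and SD (n = 6). The Rpl3l share is lower and the Rps4l share higher in every mdx/mTR mouse than in any WT mouse, while the Rps27l shares overlap.

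Genes that build and use ribosomes were examined beside the members. In the list for ribosome assembly and rRNA processing, 27 of 56 tested genes were lower in mdx/mTR (48.2%, against 23.4% of all genes) and 1, Riok1, was higher, with a median log2 fold change of -0.16. Rrp12, an export factor of precursor subunits, was 70.6 to 103.3 CPM (median 91.2) in WT and 53.9 to 65.9 CPM (median 55.8) in mdx/mTR, without overlap. Its log2 fold change was -0.63 ± 0.08 (edgeR adjusted p 3.4e-05). Tsr1, a small-subunit assembly factor, had a log2 fold change of -0.44 (edgeR adjusted p 7.3e-05). In the list for RNA polymerase I, which makes the large rRNA precursor, 7 of 19 genes were lower (36.8%) and 1 was higher. They included the initiation factor gene Rrn3, with a WT range of 68.5 to 76.1 CPM and an mdx/mTR range of 49.8 to 61.2 CPM (log2 fold change -0.39, edgeR adjusted p 3.6e-05), and the catalytic subunit gene Polr1a (-0.30, 0.00068).

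Of 35 tested translation initiation factors, 13 were lower (37.1%, against 23.4% of all genes) and 0 higher (25% of all genes). Eif5b, which joins the subunits, had a log2 fold change of -0.31 (edgeR adjusted p 0.00036), and Eif2s2, a subunit of the factor that brings the first transfer RNA, -0.36 (0.0011). Of 12 elongation and termination factors, 4 were lower (33.3%) and 1 was higher. The higher gene was Eef1a1, the elongation factor form that adult muscle fibres replace with Eef1a2. It was 80.0 to 103.7 CPM (median 94.7) in WT and 148.4 to 299.5 CPM (median 174) in mdx/mTR, a log2 fold change of 1.06 ± 0.15 (edgeR adjusted p 7.2e-05), without overlap. Eef2k, the kinase that inhibits elongation, had a log2 fold change of -0.55 (edgeR adjusted p 9.7e-05).

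In the list of MYC, mTORC1 and LARP1 regulators, 8 of 24 genes were lower (33.3%, against 23.4% of all genes) and 4 were higher (16.7%, against 25%). Larp1, which binds the TOP motif, was 207 to 258 CPM (median 244) in WT and 152 to 184 CPM (median 173) in mdx/mTR, with a log2 fold change of -0.48 ± 0.06 (edgeR adjusted p 3.1e-05). Tsc2, an inhibitor of mTORC1, had a log2 fold change of -0.31 (edgeR adjusted p 5.5e-05). The higher genes were Myc, Mycl, Deptor and Sesn1, of which the last pair encode inhibitors of mTORC1. These counts depended on the scaling. With library totals, under which 40.2% of all genes were higher and 11.2% lower, 9 of the 56 assembly genes were higher (16.1%) and 6 lower (10.7%), with a median of -0.00. Under that scaling 10 initiation factors were higher (28.6%) and 5 lower (14.3%), and the RNA polymerase I list had 4 higher (21.1%) and 2 lower (10.5%). The regulator list had 6 of each, and the elongation and termination list 2 higher and 3 lower. The median log2 fold change of each of these 5 lists lay below that of the ribosomal protein genes under both scalings.

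**Figure D5:**
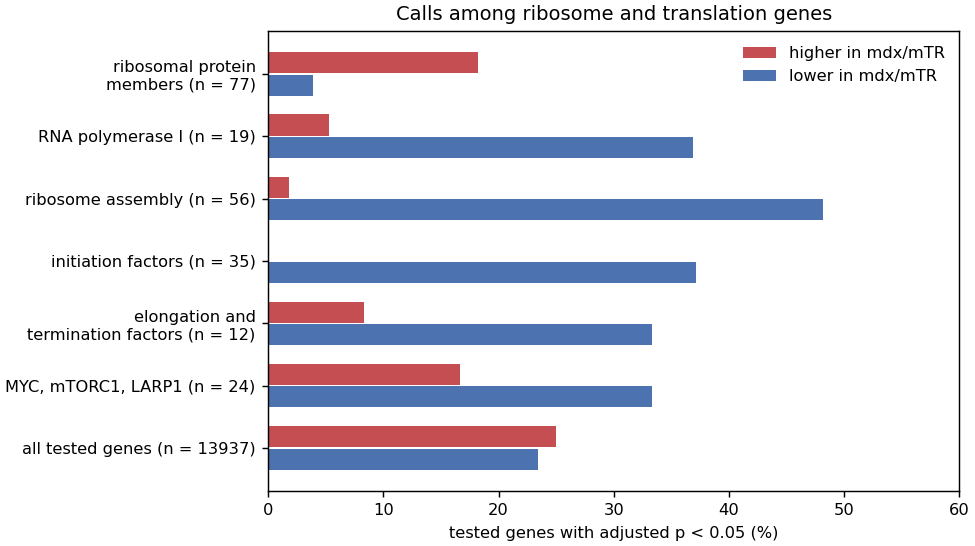
Percentage of tested genes called higher or lower in mdx/mTR (horizontal axis, edgeR adjusted p under 0.05) for the ribosomal protein genes, 5 lists of ribosome and translation genes, and all 13937 tested genes. With TMM scaling, as drawn, lower calls make up 48.2% of the assembly list and 3.90% of the ribosomal protein genes; with library totals, 16.1% of the assembly list is higher and 10.7% lower, beside 40.2% and 11.2% of all genes.

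Markers of several cell types differed between the groups, and in whole tissue fewer cells of a type and less RNA per cell cannot be told apart. Of all tested genes, 25% were called higher and 23.4% lower, and the counts below stand beside these shares. Of 14 tested macrophage markers 13 were higher, and their summed level ranged from 165 to 311 CPM over the WT mice and from 485 to 1146 CPM over the mdx/mTR mice. Of 10 fibroblast markers 8 were higher (2018 to 3026 CPM in WT, 4303 to 6975 in mdx/mTR), as were 7 of 7 markers of regenerating fibres (214 to 488 and 445 to 1551 CPM) and 5 of 7 of satellite cells and myoblasts, with 1 lower. Endothelial markers were lower for 5 of 8 and higher for 1, and Schwann cell markers lower for 4 of 6. Markers of mature muscle fibres, the labelled tissue, summed to 211948 to 237318 CPM in the WT mice and to 162904 to 221484 CPM in the mdx/mTR mice, with 3 of 12 lower and 1 higher. Neutrophil markers were higher for 2 of 3 tested genes and lymphocyte markers for 1 of 3, while 0 of 4 adipocyte markers were called. The lymphocyte count and the lower mature fibre markers (25%) are near the shares over all genes. With library totals, 40.2% of all genes were higher and 11.2% lower. Under that scaling, endothelial markers were lower for 3, satellite cell and myoblast markers for 0, and mature fibre markers were higher for 2. The other counts given here were the same. The globin genes Hba-a1, Hba-a2, Hbb-bs and Hbb-bt had no count in any library. The part of these cell types in the changes of Rpl3, Rps4x, Eef1a1 or any other gene named here was not tested.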

How the data were processed

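RNA of 12 tibialis anterior muscles was sequenced after standard Illumina library preparation, with an RNA integrity number above 9.0 per the labels' protocols. The submitters' processing notes name FastQC, STAR, DESeq2 and the build mm10, without versions. The counter, its annotation, strand handling, read length and treatment of reads with several matches are not given in the sources used here. The deposited table holds whole-number counts per gene symbol, with 0 per-sample columns unmatched. Of their own comparison the authors deposited p-values, raw and adjusted, beside the log2 fold change, a test score and a mean signal over libraries, per the file headers.

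Counts were tested with edgeR 4.0.16 in R 4.3.3 (filterByExpr, TMM, quasi-likelihood test, group only), with Benjamini-Hochberg adjustment over 13937 genes and a threshold of 0.05. The standard error is the log2 fold change divided by the square root of F, and 95% intervals use the t distribution with the fit's degrees of freedom. Libraries held 35136327 to 60330410 counts, and genes tested held 99.97% of them. No pair of replicates agreed within sampling noise (chi-square per degree of freedom 8.87 to 116). Shares were tested with scipy 1.17.1 in Python 3.11.15 (smaller tail doubled). DESeq2 1.42.0 and limma 3.58.1 (voom) were alternatives, with other scalings and filters, a replicate block, each mouse left out, a stricter threshold and a minimum effect. The fit was tested on simulated data.

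Sequence sharing used the main coding transcript of each gene in GENCODE M21 (basic set, APPRIS principal isoform first) against all its transcripts, on both strands. Motifs were searched in RefSeq windows of GRCm38.p6.

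The members and lists were chosen with earlier results of these data known. Genes named are the 8 largest rises and falls among called members with a mean of at least 5 CPM, all paralogs with the suffix l and their counterparts, the 3 highest and 3 lowest members per kb, the members Rplp0, Rplp1, Rplp2, Rpsa, Rps6, Rpl5, Rpl11, Rps19, Rpl10a, Rpl38 and Rps25, the 3 with most shared sequence and the 2 smallest p-values of each pathway list. Any other gene was named after its values were seen. Results of a few genes are not reported here.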

Additional observations from a re-analysis of the deposited data

Results flagged for a closer look

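In 66 groups of 6 mice (named members and summary values in each genotype), 3 had 1 mouse far from the other 5, by Dixon's criterion on the gap to its nearest neighbour. Chance flags about 1 in 20 groups, which is 3.3 of 66. Rpl39 was 7.54 CPM in mdx/mTR 5 and 6.15 to 6.64 CPM in the other mdx/mTR mice. Rpl10a was 0.902 CPM in WT 4 and 1.23 to 1.39 CPM in the other WT mice. Rpl38 was 5.36 CPM in mdx/mTR 3 and 6.66 to 7.30 CPM in the other mdx/mTR mice. Each lies in a different library.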

How the results depend on the processing

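The count of called members (17; 14 higher, 3 lower) was 26 (23 higher) with upper quartile scaling and 47 (46 higher, 1 lower) with library totals alone. It was 6 (4 higher) at an adjusted p of 0.01 (33.2% of all genes). With a minimum log2 fold change of 0.5 it was 2 (1 higher, 1 lower), against 9.82% of all genes. Below 25% sharing it was 2 of 11 (1 higher, 1 lower). Below 50% sharing it was 6 of 28 (5 higher, 1 lower), and 48.3% of all tested genes were called. Without 1 mouse it was 13 to 23 (10 to 20 higher, 3 lower), the median log2 fold change 0.09 to 0.15, the log2 ratio of the summed level 0.01 to 0.05, and the Rpl3l difference -0.613 to -0.380 points. The median of the members was 0.26 with library totals and 0.033 below 25% sharing. The summed level ratio, 0.03, was 0.18 with library totals and -0.021 below 25% sharing.

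With the replicate block 11 members were called (8 higher; 46.1% of all genes), and the Rpl3l difference was -0.54 points with an exact permutation p of 0.0312. Correlations of same-numbered mice were mixed, at 0.334, 0.270, -0.0191, -0.139, -0.110 and -0.0448. They do not settle whether the numbers pair the mice.

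Estimates near 0 changed sign: Rpl3l (0.057), Rpl4 (0.11) and Rpl22l1 (0.043) with library totals, and Rplp2 with upper quartile scaling (0.021) and library totals (0.14). Without 1 mouse, Rplp0 ranged from -0.00864 to 0.050, Rplp1 from -0.022 to 0.058, Rplp2 from -0.049 to 0.010, Rpl7l1 from -0.00056 to 0.056 and Gnb2l1 from -0.012 to 0.044. The causes were not tested. DESeq2 called 15 members and limma-voom 17. Of the 81 members, 34 averaged below 5 CPM, 50 shared over 50% of their stretches, and 29 did both. Sharing below 50%, levels of at least 5 CPM, the sum without Rpl3l and counts per unshared stretch were chosen after seeing the data.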
